A study of Mus musculus with 15 samples.

Results

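Choroid plexus carcinomas were compared with choroid plexus papillomas from mice whose labelled genotypes differ in 1 item, the floxed p53 allele. The comparison takes 10 of the 15 arrays of the series, chosen by their labelled tissue and genotype: 5 carcinomas and 5 papillomas, each from its own mouse. Papillomas came from Atoh1-Cre; Myc/Myc mice and carcinomas from Atoh1-Cre; Myc/Myc; p53fl/fl mice, so that both carry the Cre driver and the Myc allele. The other 5 arrays are normal choroid plexus of Myc/Myc; p53fl/fl mice without the driver. They serve here as a reference for normal tissue, not as a stage before these tumours. All mice were a mix of C57Bl/6 and 129. Cre was placed under Atoh1, the labels do not say in which choroid plexus cells it acted, and the ages of the mice are not given. Mice were taken when they fell ill with signs such as loss of weight, loss of balance or fluid in the brain, so the groups were not matched for age by any label. Tumour type and floxed p53 go together in all 10 tumours and cannot be told apart. RNA was taken from frozen whole tissue, where fewer cells of a type and less RNA per cell cannot be told apart.

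A floxed allele is flanked by recognition sites that let Cre recombinase cut out the DNA between them. The p53 protein is a transcription factor that is stabilised by DNA damage and by strong growth signals such as Myc, and that switches on genes which stop the cell cycle, cause cell death, repair DNA and limit p53 itself. Its best known target, Cdkn1a, encodes the kinase inhibitor p21, which keeps proteins of the Rb family active. These in turn hold down genes of DNA replication, through E2F sites, and genes of mitosis, through a promoter element called the cell cycle genes homology region (CHR). Choroid plexus epithelium makes cerebrospinal fluid and carries motile cilia, whose assembly is switched on by Gmnc, Mcidas and Foxj1.

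Levels are deposited log2 values, so that a difference of 1 is a 2-fold change, and n is 5 arrays in each group throughout. A gene was called when limma's moderated test of carcinoma minus papilloma gave an adjusted p under 0.05 over all 22180 genes. Array medians lay between 6.79 and 6.90. Epithelial markers were high in both tumour types and below normal tissue: Ttr, the transthyretin that this epithelium secretes, measured 14.42 to 14.49 in papillomas, 14.42 to 14.51 in carcinomas and 14.55 to 14.58 in normal tissue. The transcription factor Otx2 measured 11.58 to 11.96, 11.89 to 11.99 and 12.08 to 12.12 in the same order. Neither gene was called between the tumour types. Over 53 epithelial genes the median difference from normal tissue was -0.356 in papillomas and -0.521 in carcinomas. Papillomas 2 and 4 stood apart in transcripts of neurons, with a mean over 20 neuronal genes of 9.10 and 8.40 against 7.18 to 7.38 in the other papillomas and 7.10 to 7.61 in the carcinomas. The count of Y-linked arrays also differed, with 3 papillomas and 2 carcinomas from tissue that expresses Y-linked genes. Normal arrays 2 to 5 expressed Xist, a transcript of female cells, together with Y-linked genes, so whether each is from 1 mouse is not settled by the labels. These arrays give the normal levels and part of the spread in the test. The main counts are given with and without papillomas 2 and 4, and also for the tumour arrays alone. Of 172 calls of named genes, 38 were lost without papillomas 2 and 4 and 42 in the tumour arrays alone. Not all of these losses are given below.

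Of the 22180 genes, 1383 (6.24%) were called higher in carcinoma and 1147 (5.17%) lower, 11.4% in all. At least 2-fold differences were called for 299 genes higher (1.35%) and 167 lower (0.753%). Every carcinoma lay above every papilloma for 1002 genes (4.52%) and below for 751 (3.39%), and the median difference over all genes was -0.025. Counts in the gene lists below stand beside these shares, and no list was tested as a set. With papillomas 2 and 4 left out, 847 genes were called higher and 740 lower. A fit to the 10 tumour arrays alone called 789 higher and 540 lower, and 644 and 428 in the same 10 arrays with sex as a term. Carcinomas varied more among themselves: the median SD of a gene was 0.147 in papillomas and 0.190 in carcinomas, and 64.8% of genes had the larger SD in carcinomas. In normal tissue the median SD was 0.123.

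**Figure D1:**
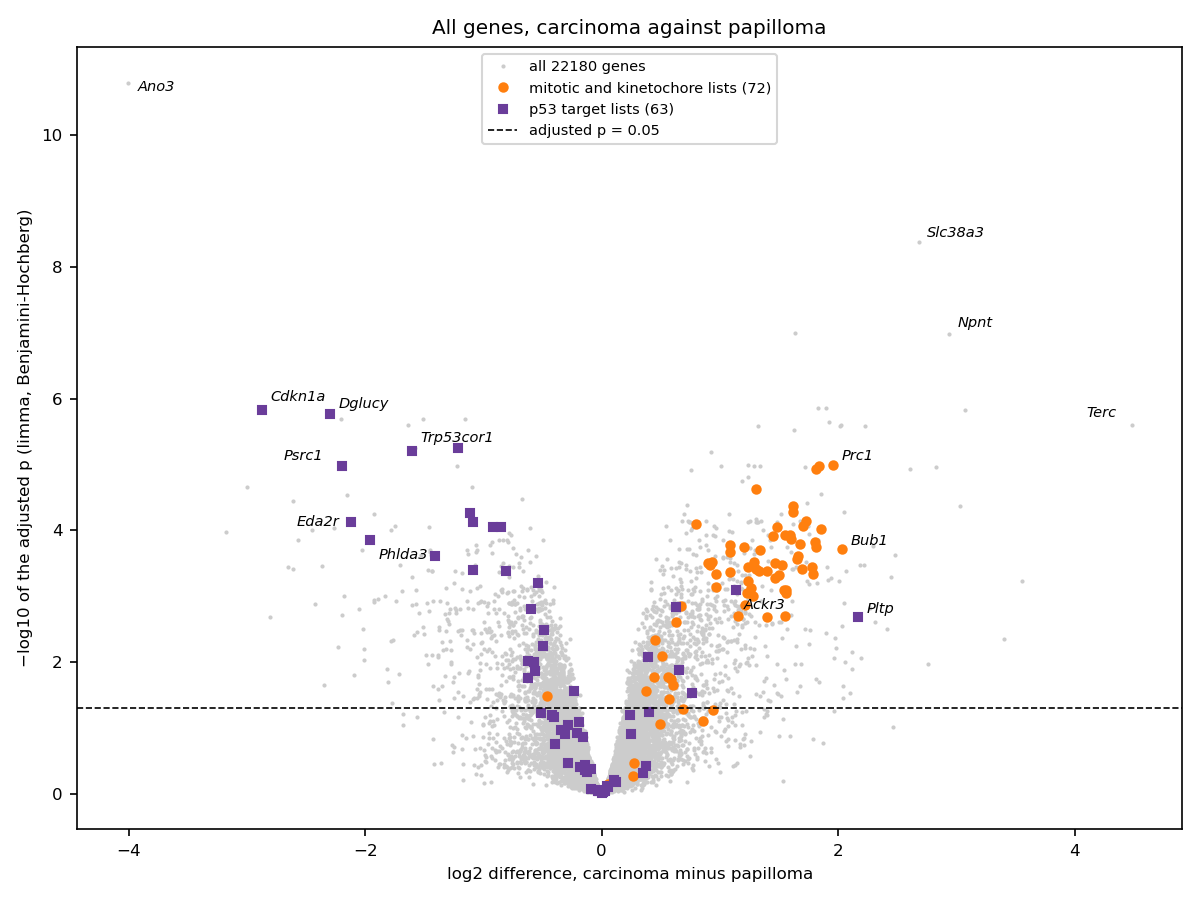
Log2 difference of carcinoma minus papilloma (horizontal) against -log10 of limma's adjusted p (vertical) for all 22180 genes, with 63 targets of p53 and 72 genes of mitosis in colour. The genes of mitosis lie almost wholly to the right, with 64 of 72 called higher, and 23 of the 63 p53 targets were called lower.

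Targets of p53 were lower in carcinoma in all 4 lists by median, and the fall of Cdkn1a was the largest among them. Of 67 listed targets 63 were measured: 23 were called lower, 6 higher and 34 neither, with a median difference of -0.209, where 5.17% of all genes were called lower. Every carcinoma lay below every papilloma for 19 of the 63, beside 3.39% of all genes. At least 2-fold lower were 11, beside 0.753% of all genes. Without papillomas 2 and 4 the counts were 19 lower and 5 higher, and in the tumour arrays alone 20 lower and 4 higher. The transcript of p53 itself is not analysed here.

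Of 11 measured targets that stop the cell cycle, 5 were called lower and 1 higher, with a median of -0.341. The higher one was Sfn, at 8.73 to 9.01 in papillomas and 9.03 to 9.45 in carcinomas (difference 0.39 ± 0.09, limma adjusted p = 0.00838). Cdkn1a measured 12.80, 12.74, 12.74, 12.62 and 12.73 in papillomas 1 to 5 and 9.22, 9.56, 9.91, 9.80 and 10.80 in carcinomas 1 to 5. The papillomas were tightly grouped and far above every carcinoma, and carcinoma 5 was the highest of its group. The difference was -2.87 ± 0.21 (SE), 7.31-fold, with a limma adjusted p of 1.46e-06. Normal choroid plexus, at 10.66 ± 0.19 (SD), lay between the groups and below carcinoma 5. The promoter of Cdkn1a is shown for its exact letter match to a p53 response element. Of 53 p53 targets with a promoter in the RefSeq table, it alone held a match from 250 bases before to 50 bases after the start. In capitals are the 2 decamers of that match, with a spacer of 12 bases in lower case. A decamer had to fit RRRCWWGYYY exactly, with R for A or G, W for A or T and Y for C or T. The bases directly after the second decamer differ from this pattern in their first letter alone, and so were not counted. Which of these bases p53 binds was not tested.
Cdkn1a: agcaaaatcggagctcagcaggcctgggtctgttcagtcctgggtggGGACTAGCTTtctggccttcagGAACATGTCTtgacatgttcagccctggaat
The stretch is chr17:29090859-29090958 of GRCm38.p6 on the plus strand. The match starts at position -73 from the upstream start of the gene and at position -2863 from its downstream start. Such an exact match, searched on both strands with a spacer of 0 to 13 bases, was found at any start of 8 of 16990 genes (0.0471%). The count leaves out elements that depart from the pattern by any letter, and the table says nothing of elements farther away or in introns.

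Ccng1, a cyclin that takes part in the feedback on p53, measured 13.33, 13.42, 13.36, 13.32 and 13.44 in papillomas and 12.36, 12.07, 12.71, 12.37 and 12.76 in carcinomas. The groups did not overlap, and normal tissue lay between them at 13.07 ± 0.08 (SD). The difference was -0.92 ± 0.11 (limma adjusted p = 8.81e-05). For Plk2, a kinase of centriole duplication, papillomas measured 10.65, 10.42, 9.90, 9.58 and 10.49 and carcinomas 8.87, 8.96, 8.47, 8.51 and 9.22. Here the papillomas were near normal tissue (10.59 ± 0.15), and the carcinomas were lower by -1.41 ± 0.19 (limma adjusted p = 0.000248). Psrc1, a spindle protein, had a different order of groups. It measured 10.82, 10.95, 11.27, 11.21 and 11.35 in papillomas and 8.79, 9.63, 8.46, 9.31 and 8.44 in carcinomas, while normal tissue was at 7.15 ± 0.22. Carcinomas lay below papillomas by -2.19 ± 0.20 (limma adjusted p = 1.05e-05) and still above normal tissue.

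Of 15 measured targets that act in cell death, 8 were called lower and 1 higher, with a median of -0.288. In the tumour arrays alone 7 were called lower, and 5 in these with sex as a term. The higher one was Pidd1, at 9.05 to 9.65 in papillomas and 9.48 to 10.36 in carcinomas (difference 0.65 ± 0.16, limma adjusted p = 0.0134). Its call was lost in the tumour arrays alone (limma adjusted p = 0.0601). Eda2r, a receptor of the tumour necrosis factor family, measured 9.19, 9.42, 9.40, 9.10 and 9.63 in papillomas and 7.11, 6.58, 7.43, 6.74 and 8.28 in carcinomas. The carcinomas were all lower, with carcinoma 5 nearest to the papillomas, and the difference was -2.12 ± 0.24 (limma adjusted p = 7.44e-05). Fas, the death receptor, measured 7.56, 7.66, 7.74, 7.23 and 7.86 in papillomas and 6.47, 6.14, 6.67, 6.79 and 6.54 in carcinomas. Carcinomas lay near or below the normal mean of 6.74 ± 0.10 and papillomas above it. The difference for Fas was -1.08 ± 0.12 (limma adjusted p = 7.44e-05). Zmat3, an RNA-binding protein, lay between 10.86 and 11.17 in papillomas and between 9.38 and 10.05 in carcinomas (difference -1.22 ± 0.10, limma adjusted p = 5.63e-06). Dcxr, a sugar reductase that this list also holds, fell by 1.11 ± 0.12 (limma adjusted p = 5.5e-05). Some well-known death genes were not called: Bbc3, which encodes the killer protein Puma and was picked here after its values were seen, differed by 0.10 (limma adjusted p = 0.622).

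Among the targets of feedback and DNA repair, 5 of 14 were called lower and 1 higher, with a median of -0.351. In the tumour arrays alone 3 were called lower. Trp53cor1, the long noncoding RNA next to Cdkn1a, measured 8.91, 9.59, 9.70, 9.42 and 9.87 in papillomas and 7.80, 7.83, 7.93, 7.75 and 8.15 in carcinomas. Carcinomas were close together, near or below the normal mean of 8.13 ± 0.09, and every papilloma was higher (difference -1.61 ± 0.14, limma adjusted p = 6.19e-06). Sesn2, a stress protein that restrains growth signalling, measured 9.90, 10.23, 10.14, 10.21 and 10.38 in papillomas and 8.67, 8.73, 9.10, 9.28 and 9.63 in carcinomas. Its groups did not overlap either (difference -1.09 ± 0.16, limma adjusted p = 0.000397). Polh, a polymerase that copies damaged DNA, went the other way, at 8.69 to 9.14 in papillomas and 9.18 to 9.76 in carcinomas (difference 0.63 ± 0.11, limma adjusted p = 0.00148).

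Mdm2, which marks p53 for destruction and is switched on by it, was not called. It measured 10.34, 10.28, 10.34, 10.09 and 10.33 in papillomas and 9.79, 9.55, 10.04, 9.55 and 10.44 in carcinomas. Carcinoma 5 lay above all the papillomas and the other 4 carcinomas below them. The difference was -0.40 ± 0.14 (limma adjusted p = 0.069), and -0.54 (limma adjusted p = 0.00205) without carcinoma 5. Array quality weights gave it a limma adjusted p of 0.0153, and a fit without the dim genes 0.0479.

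Of the 23 targets of metabolism and other roles, 5 were called lower and 3 higher, with a median of -0.088. Dglucy, a mitochondrial enzyme, measured 9.89, 9.98, 9.92, 9.80 and 10.06 in papillomas and 7.70, 7.10, 7.45, 7.67 and 8.26 in carcinomas. All carcinomas lay below the papillomas and below the normal mean of 8.38 ± 0.27, and the difference was -2.29 ± 0.17 (limma adjusted p = 1.74e-06). Phlda3, which blocks the survival kinase Akt, measured 10.50, 11.16, 10.95, 10.73 and 11.18 in papillomas and 8.42, 8.23, 8.99, 9.25 and 9.85 in carcinomas. Carcinoma 5 was again the highest carcinoma, and the groups did not overlap (difference -1.96 ± 0.25, limma adjusted p = 0.000142). Ak1, an adenylate kinase, fell by 0.81 ± 0.12 (limma adjusted p = 0.000413) and Ercc5, a nuclease of excision repair, by 0.60 ± 0.10 (limma adjusted p = 0.00156). Pltp, a lipid transfer protein, was among the 3 that were higher. It measured 8.13, 9.58, 8.83, 8.64 and 8.93 in papillomas and 10.65, 9.34, 11.05, 11.97 and 11.95 in carcinomas, against 12.99 ± 0.04 in normal tissue. Carcinoma 2 lay within the range of the papillomas and the other 4 above it (difference 2.17 ± 0.39, limma adjusted p = 0.00206). Ackr3, a chemokine receptor, was higher in every carcinoma, at 8.09 to 8.87 against 6.87 to 7.82 (difference 1.13 ± 0.18, limma adjusted p = 0.000803).

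The 23 lower targets differed in where normal tissue stood. In 15 of them the carcinoma mean was below the normal mean, and in 8 it lay between the normal and the papilloma mean. By the tests of each tumour type against the same 5 normal arrays, 16 of the 23 were called higher in papilloma than in normal tissue, 11 were called lower in carcinoma than in normal tissue, and 6 higher. Carcinoma 5 gave the highest carcinoma value for 13 of the 23, against 1 to 4 for each of the other carcinomas.

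Genes that act on p53 moved the other way in part. Of 13 measured, 5 were called higher (38.5%) and 1 lower (7.69%), beside 6.24% and 5.17% over all genes. The median was 0.073, and 3 were called higher without papillomas 2 and 4. The lower one was Trp63, a relative of p53, at -0.25 (limma adjusted p = 0.0427). That call was lost without carcinoma 1, 2, 3 or 5 or papilloma 2, 3 or 5, at limma adjusted p-values of 0.0545 to 0.102. It was also lost without papillomas 2 and 4 (limma adjusted p = 0.105) and in the tumour arrays alone (limma adjusted p = 0.0832). Chek2, a kinase of the DNA damage response, measured 7.53, 7.55, 7.50, 7.42 and 7.55 in papillomas and 8.24, 9.44, 8.60, 8.37 and 8.45 in carcinomas. Carcinoma 2 was the highest, and the groups did not overlap (difference 1.11 ± 0.17, limma adjusted p = 0.000542). E2f1, which drives S-phase genes, measured 8.55 to 8.77 in papillomas and 9.34 to 9.60 in carcinomas (difference 0.76 ± 0.07, limma adjusted p = 1.22e-05). Both E2f1 groups were narrow, and the carcinomas were at the normal level of 9.47 ± 0.06.

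Cdkn2a, whose p19Arf product shields p53 from Mdm2 and whose p16 product inhibits the cyclin D kinases, split the carcinomas. It measured 7.78, 7.67, 7.82, 7.92 and 7.75 in papillomas and 9.54, 10.80, 8.09, 7.84 and 10.15 in carcinomas, against 7.71 ± 0.09 in normal tissue. Carcinomas 1, 2 and 5 were far above all the papillomas, carcinoma 3 just above them, and carcinoma 4 within their range. The difference was 1.50 ± 0.42 (limma adjusted p = 0.0306). This call was lost without carcinoma 1 (1.43, limma adjusted p = 0.065), carcinoma 2 (1.12, limma adjusted p = 0.0592) or carcinoma 5 (1.28, limma adjusted p = 0.0716). It was also lost without any 1 papilloma, at limma adjusted p-values between 0.0514 and 0.0606, and without papillomas 2 and 4 (limma adjusted p = 0.103). In the tumour arrays alone the limma adjusted p of Cdkn2a was 0.107, and 0.158 in these with sex as a term. The array gives both products of the locus 1 value. The neighbouring inhibitor Cdkn2b, chosen after its values were seen, differed by -0.07 (limma adjusted p = 0.822).

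**Figure D2:**
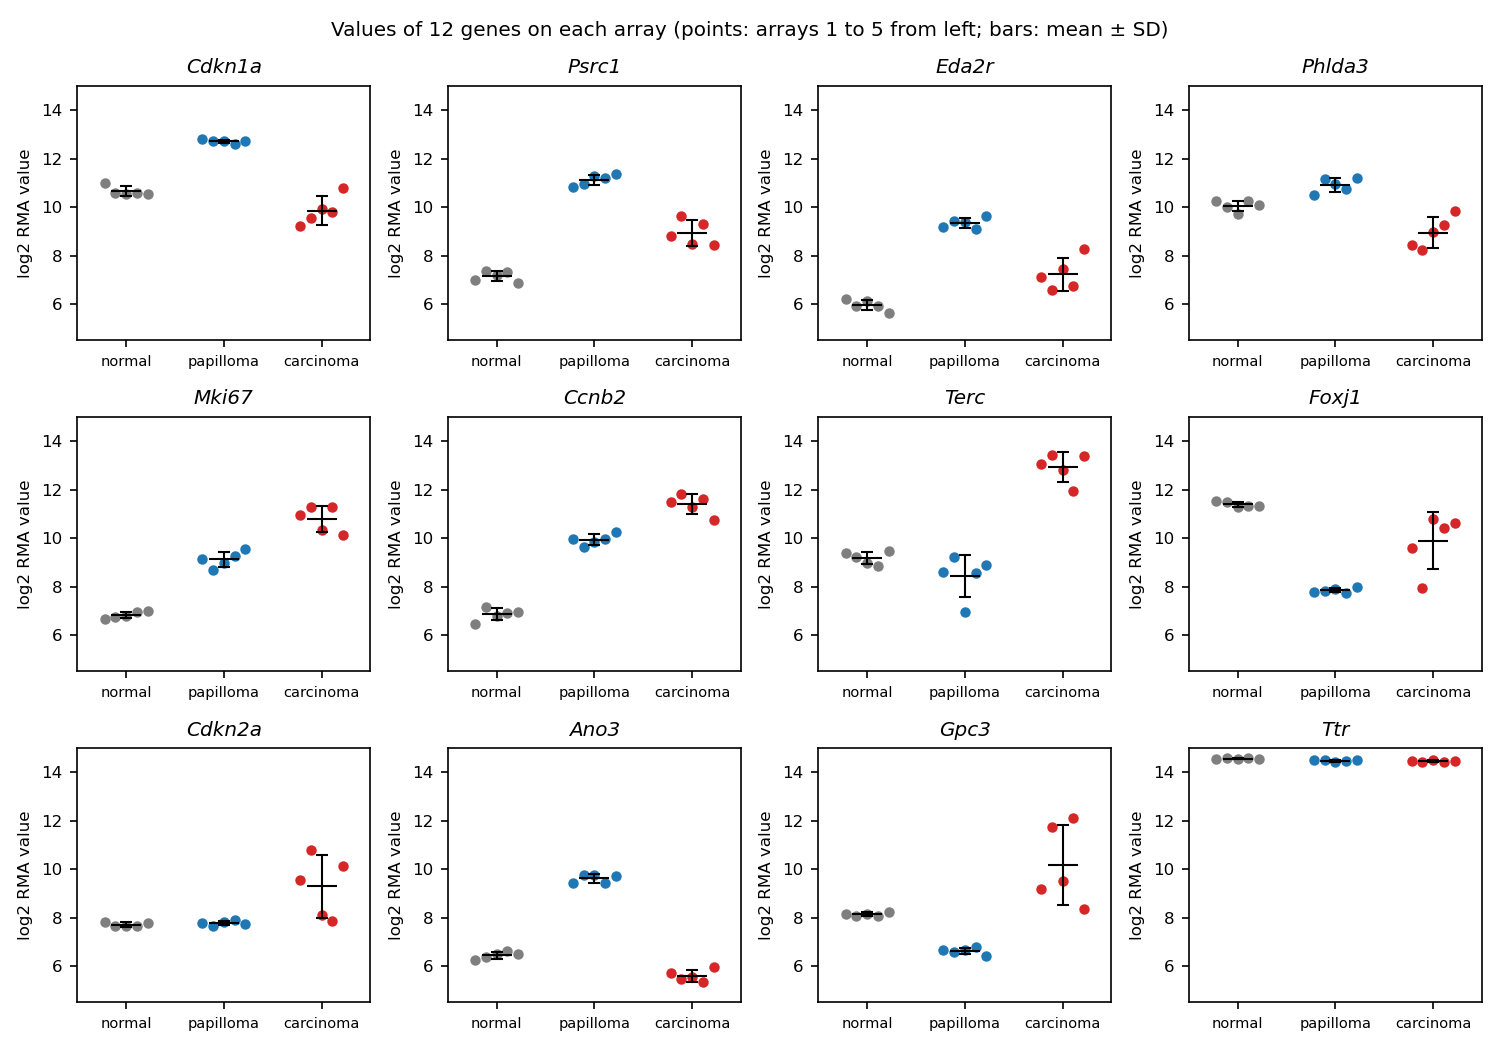
Log2 level of 12 genes in each of the 15 arrays by group, with a point for each array and the mean ± SD. Cdkn1a, Psrc1, Eda2r, Phlda3 and Ano3 have every papilloma above every carcinoma, Mki67, Ccnb2, Terc and Gpc3 every carcinoma above every papilloma, Cdkn2a and Foxj1 a wide spread in carcinomas, and Ttr no difference beyond the spread.

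Most measured genes of mitosis were higher in carcinoma. Of 75 listed genes of mitotic regulation, kinetochore and spindle, 72 were measured: 64 were called higher, 1 lower and 7 neither, with a median difference of 1.296, beside 6.24% called higher over all genes. At least 2-fold higher were 48, beside 1.35% of all genes. In 59 every carcinoma lay above every papilloma, beside 4.52% of all genes. The counts of higher genes were 58 without papillomas 2 and 4, and 59 in the tumour arrays alone. The lower gene was Lin52, a subunit of the DREAM complex that represses such genes, at -0.46 (limma adjusted p = 0.0327). That call was lost without carcinoma 1, 2 or 3 or papilloma 2, 3, 4 or 5, at limma adjusted p-values of 0.0581 to 0.0805. It was also lost without papillomas 2 and 4 (limma adjusted p = 0.112) and in the tumour arrays alone (limma adjusted p = 0.106). Of the 64, the papilloma mean was above the normal mean in 60, so that for these genes the order was normal, papilloma, carcinoma.

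Mki67, the proliferation antigen Ki-67, measured 9.16, 8.68, 8.98, 9.25 and 9.54 in papillomas and 10.97, 11.28, 10.35, 11.29 and 10.11 in carcinomas. Normal tissue was at 6.83 ± 0.14, every papilloma was above it, and every carcinoma was above every papilloma. The difference between the tumour types was 1.68 ± 0.21 (limma adjusted p = 0.000159). Bub1, a kinase of the spindle checkpoint, had the largest difference of this group among the genes named, at 2.04 ± 0.27 (limma adjusted p = 0.000191). It measured 7.84, 7.25, 7.48, 7.49 and 7.51 in papillomas and 9.67, 10.43, 9.13, 9.92 and 8.61 in carcinomas. Carcinoma 2 was the highest and carcinoma 5 the lowest, an order that recurred in most genes of the group.

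Cdc20, the activator of the anaphase-promoting complex, measured 8.63, 8.33, 8.54, 8.59 and 8.85 in papillomas and 10.36, 11.12, 9.84, 10.52 and 9.75 in carcinomas. Cdk1, the kinase that drives entry into mitosis, measured 10.76, 10.40, 10.30, 10.95 and 10.87 in papillomas and 11.80, 11.91, 11.69, 11.86 and 11.45 in carcinomas. Neither gene had overlapping groups, and the differences were 1.73 ± 0.20 for Cdc20 (limma adjusted p = 7.21e-05) and 1.08 ± 0.14 for Cdk1 (limma adjusted p = 0.00017). Its partner cyclin Ccnb2 measured 9.98, 9.65, 9.85, 9.98 and 10.24 in papillomas and 11.50, 11.83, 11.30, 11.61 and 10.74 in carcinomas, a difference of 1.45 ± 0.18 (limma adjusted p = 0.000122). Its normal level was 6.86 ± 0.26, so that normal tissue and papilloma differed more than papilloma and carcinoma did. Differences of like size were measured for Prc1, a bundler of spindle microtubules (1.96 ± 0.18, limma adjusted p = 1e-05), Plk1, a mitotic kinase (1.86 ± 0.22, limma adjusted p = 9.59e-05), Bub1b, the checkpoint kinase BubR1 (1.84 ± 0.17, limma adjusted p = 1.04e-05), and Top2a, a topoisomerase (1.81 ± 0.23, limma adjusted p = 0.00015). Ccna2, the cyclin of S phase and mitosis, differed by 1.62 ± 0.18 (limma adjusted p = 5.23e-05). Foxm1, a transcription factor of mitotic genes, differed by 0.90 ± 0.13 (limma adjusted p = 0.000315).

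Promoters of these genes shared letters that the list did not use. The CHR motif TTTGAA was read on both strands within 250 bases before to 50 bases after the start. A gene counts once, with a motif if the promoter of any of its starts held it. The motif was in 14 of 24 mitotic regulators (58.3%) and 23 of 35 kinetochore and spindle genes (65.7%), against 17.8% of all 16990 genes. The motif CCAAT was in 79.2% and 71.4% of them, against 41.6% of all. Of the 222 promoters of genes called and at least 2-fold higher in carcinoma, 31.5% held TTTGAA, and of the 128 of genes at least 2-fold lower, 17.2%. The genes at least 2-fold higher include 48 of the mitotic and kinetochore lists, so the first share partly counts the same promoters again. All these motifs are matches of letters and not measured sites. The 100 bases before the start are shown for Cdc20 and Cdk1, where they hold both motifs, and for Ccnb2, where they hold CCAAT alone. Whether the rest of the counted window of Ccnb2 holds TTTGAA is not given here. Capitals mark TTTGAA and CCAAT, the second also as its reverse complement ATTGG.
Cdc20: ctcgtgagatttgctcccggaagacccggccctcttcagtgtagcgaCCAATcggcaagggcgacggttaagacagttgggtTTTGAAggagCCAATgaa
Cdk1: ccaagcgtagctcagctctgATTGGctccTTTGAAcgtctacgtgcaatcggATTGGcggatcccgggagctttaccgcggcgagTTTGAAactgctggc
Ccnb2: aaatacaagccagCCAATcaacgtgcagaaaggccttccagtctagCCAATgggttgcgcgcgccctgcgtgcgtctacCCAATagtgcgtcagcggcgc
They are chr4:118437344-118437443, chr10:69352913-69353012 and chr9:70421555-70421654 of GRCm38.p6, all on the minus strand, from RefSeq.

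The height of mitotic genes differed among carcinomas more than among papillomas. The mean over the 31 mitotic regulators was 8.51, 8.24, 8.36, 8.40 and 8.53 in papillomas and 9.60, 10.02, 9.35, 9.69 and 9.04 in carcinomas, with 7.37 to 7.49 in normal tissue. For the 64 genes called higher, carcinoma 2 gave the highest carcinoma value in 54 and carcinoma 5 the lowest in 53. Carcinoma 5 is also the tumour with the highest Cdkn1a of the carcinomas. The mitotic mean of every carcinoma was above that of every papilloma.

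**Figure D3:**
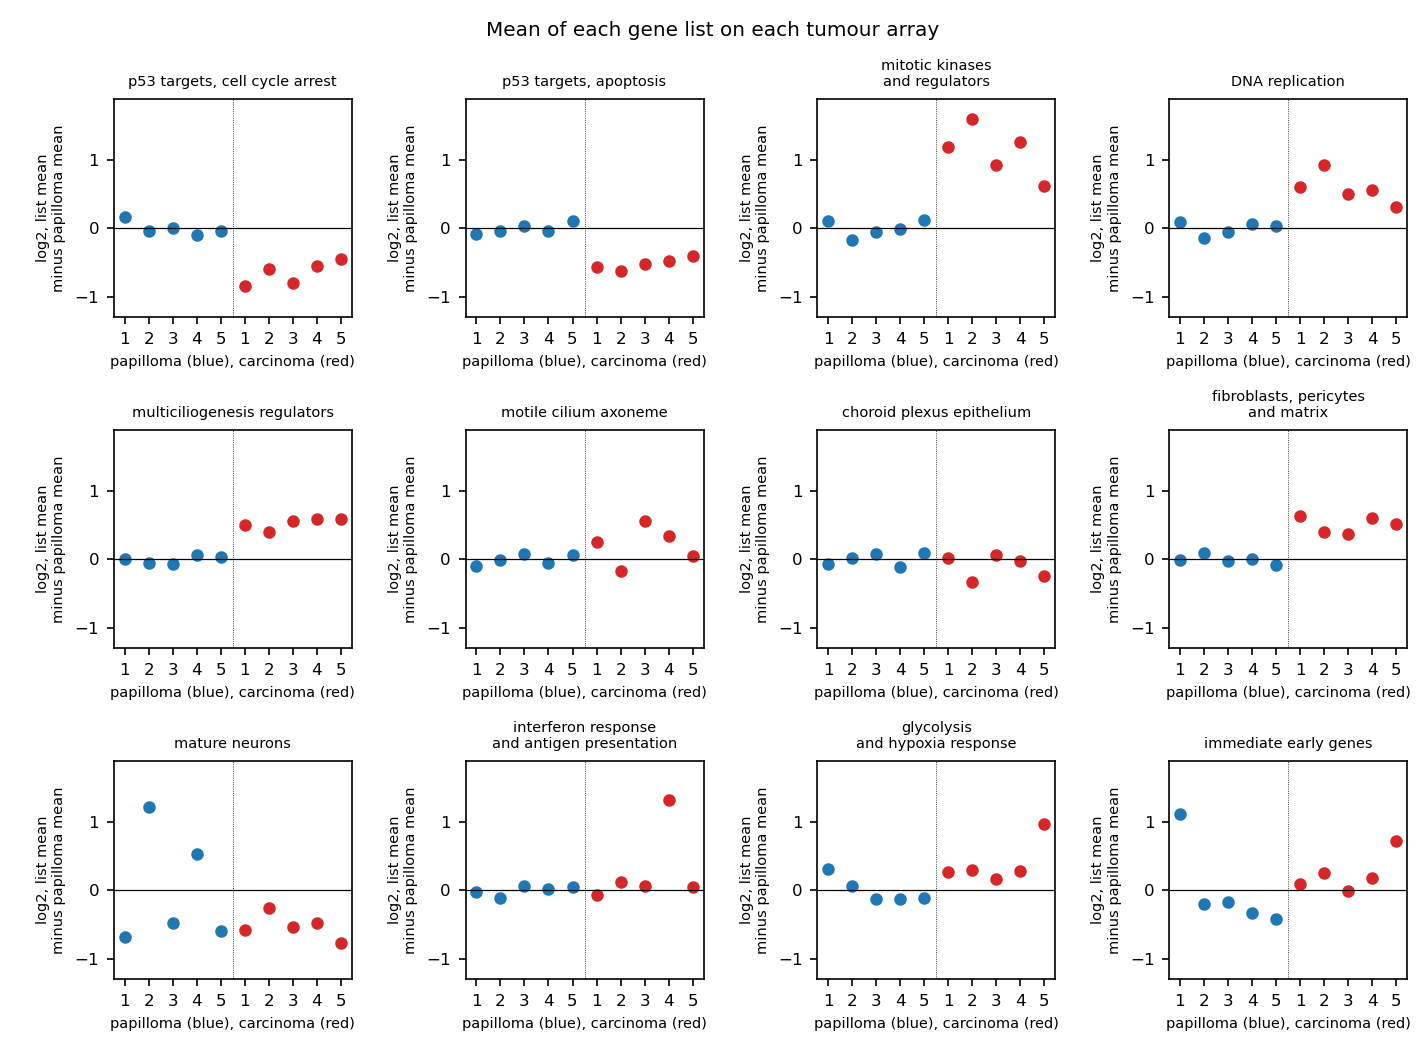
Mean over the genes of 12 lists in each tumour array, as the log2 difference from the papilloma mean of the same list, with papillomas and carcinomas in separate colours. The mitotic and replication lists have all 5 carcinomas above the papillomas, with carcinoma 2 at the top and carcinoma 5 at the bottom for mitosis. Papillomas 2 and 4 are high in neuronal genes.

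DNA replication genes were higher by smaller amounts. Of 50 measured, 34 were called higher and 16 in neither direction, with a median of 0.53, and 27 had every carcinoma above every papilloma. The shares over all genes were 6.24% called higher and 4.52% with every carcinoma above. In the tumour arrays alone 26 were called higher, and 21 in these with sex as a term. Without papillomas 2 and 4, 25 were called higher. Mcm3, a subunit of the replicative helicase, measured 8.35, 8.08, 8.18, 8.35 and 8.40 in papillomas and 9.61, 10.08, 9.24, 9.46 and 9.27 in carcinomas. Mcm6, another subunit, measured 8.91, 8.54, 8.65, 8.85 and 9.07 in papillomas and 9.95, 10.64, 9.70, 10.23 and 9.55 in carcinomas. In both, carcinoma 2 was the highest and no groups overlapped, with differences of 1.26 ± 0.14 for Mcm3 (limma adjusted p = 7.21e-05) and 1.21 ± 0.21 for Mcm6 (limma adjusted p = 0.00177). Rrm2, a subunit of ribonucleotide reductase, differed by 1.32 ± 0.15 (limma adjusted p = 7.44e-05) and by 0.469 on its other probe set. Dbf4, which activates the kinase that fires replication origins, differed by 1.27 ± 0.16 (limma adjusted p = 0.00014).

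Replication promoters held CCAAT in 61%, against 41.6% of all promoters and 79.2% of those of mitotic regulators. The E2F motif TTCCCGC was in 17 of 41 (41.5%), against 6.89% of all promoters, 4.17% of those of mitotic regulators and 14.3% of those of kinetochore and spindle genes. The CHR motif TTTGAA was in 17.1%, near the share of all promoters. A second E2F form, TTGGCGC, was in 26.8% against 3.6% of all and 14.3% of kinetochore and spindle promoters. The promoter of Mcm6 is shown as an example of that form beside CCAAT, read as ATTGG.
Mcm6: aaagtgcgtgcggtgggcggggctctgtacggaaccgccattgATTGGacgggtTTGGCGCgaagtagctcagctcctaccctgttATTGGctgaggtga
This is chr1:128359706-128359805 of GRCm38.p6 on the minus strand, the 100 bases before the start.

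Genes of homologous recombination and the Fanconi pathway repair breaks and crosslinks during replication. Of the 29 measured, 17 were called higher (58.6%, beside 6.24% over all genes) and 12 in neither direction, with a median of 0.412. Without papillomas 2 and 4, 12 were called higher. Their promoters held TTCCCGC in 10 of 24 (41.7%), like those of replication. Fanci and Fancd2, the pair of proteins that is ubiquitinated at crosslinks, differed by 1.15 ± 0.17 (limma adjusted p = 0.000597) and 1.14 ± 0.16 (limma adjusted p = 0.000342). Brca1, of the same repair route, measured 6.80, 6.25, 6.49, 6.66 and 6.61 in papillomas and 7.93, 8.27, 7.38, 7.85 and 6.96 in carcinomas (difference 1.12 ± 0.20, limma adjusted p = 0.0018). Carcinoma 5 was the lowest carcinoma for Brca1 and still above every papilloma.

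Genes that control the step from G1 into S phase included both drivers and inhibitors. Of 18 measured, 10 were called higher (55.6%) and 2 lower (11.1%), beside 6.24% and 5.17% over all genes. The median was 0.497, and 5 were called higher without papillomas 2 and 4. Ccnd1, cyclin D1, measured 9.22, 9.78, 8.98, 10.20 and 9.62 in papillomas and 10.72, 11.03, 11.36, 12.09 and 10.21 in carcinomas. Carcinoma 5 and papilloma 4 were almost level, and the other carcinomas were higher (difference 1.52 ± 0.28, limma adjusted p = 0.00249). Cdkn1c, the kinase inhibitor p57, was higher in carcinoma while Cdkn1a was lower. It measured 7.72, 7.62, 7.25, 7.45 and 7.78 in papillomas and 9.04, 9.20, 9.25, 9.33 and 9.18 in carcinomas, against 10.38 ± 0.06 in normal tissue. Both tumour types lay below normal tissue, papillomas farther, and the difference was 1.63 ± 0.09 (limma adjusted p = 9.98e-08). Of the Rb family, Rbl1 (p107) was higher by 1.23 ± 0.11 (limma adjusted p = 1.03e-05) and Rbl2 (p130), on chromosome 8, fell by 0.46 ± 0.09 (limma adjusted p = 0.00284).

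Of the 10 E2F family genes 4 were called higher (40%, beside 6.24% over all genes) and 6 in neither direction. E2f8 and E2f7, repressors that are themselves induced in S phase, each differed by 1.62, with SE 0.18 and 0.19 (limma adjusted p = 5.5e-05 and 8.03e-05). Of 28 histone genes 13 were measured and 6 called higher (46.2% of those measured). The largest difference was that of H2bc12, an H2B histone, which measured 7.14 to 8.15 in papillomas and 8.54 to 10.51 in carcinomas (1.91 ± 0.29, limma adjusted p = 0.000573). Histone genes are near-identical copies of each other, so a probe set may measure more than its named gene.

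The largest rise among the genes that could be named was that of Terc, the RNA template of telomerase. It measured 8.59, 9.22, 6.95, 8.57 and 8.89 in papillomas and 13.07, 13.45, 12.81, 11.94 and 13.38 in carcinomas. Papillomas were near or below the normal mean of 9.18 ± 0.25, and carcinomas formed a separate group far above it. The difference was 4.48 ± 0.36 (22.4-fold, limma adjusted p = 2.52e-06), and between 4.11 and 4.73 when any 1 tumour array was left out. Tert, the protein subunit that copies this template, measured 7.17, 6.87, 6.85, 6.69 and 6.99 in papillomas and 7.66, 7.71, 7.54, 7.28 and 7.50 in carcinomas. Carcinomas were at the normal level of 7.57 ± 0.10 and papillomas below it (difference 0.63 ± 0.10, limma adjusted p = 0.000745). Of the 14 genes of telomerase and of shelterin, the complex that caps telomeres, 3 were called higher (21.4%) and 1 lower (7.14%). The shares over all genes were 6.24% and 5.17%, and the median of the list was 0.202. The numbers were 5 higher without carcinoma 5 and 2 lower without carcinoma 2. The lower one, Terf2ip, lies on chromosome 8, whose genes shifted together in some carcinomas. The gene beside Terc, BC107364, chosen after its values were seen, differed by 1.12 (limma adjusted p = 0.000316).

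For several other large rises, carcinomas lay nearer to the level of normal choroid plexus than papillomas did. Gldc, which breaks down glycine, measured 7.35, 7.61, 6.72, 7.25 and 6.95 in papillomas and 9.58, 10.23, 9.86, 10.74 and 10.82 in carcinomas, against 10.59 ± 0.22 in normal tissue (difference 3.07 ± 0.22, limma adjusted p = 1.47e-06). Slc38a3, a glutamine transporter, measured 9.28, 10.04, 9.89, 9.85 and 10.02 in papillomas and 12.56, 12.32, 12.51, 12.50 and 12.60 in carcinomas, against 13.20 ± 0.09 (difference 2.68 ± 0.12, limma adjusted p = 4.1e-09). Papillomas stood far below normal tissue in both genes, by -3.41 for Gldc and -3.39 for Slc38a3. Carcinomas were not called against normal tissue for Gldc (-0.34, limma adjusted p = 0.267). For Slc38a3 they were lower than normal tissue by a smaller amount (-0.70, limma adjusted p = 0.00018). Pon1, a paraoxonase, differed by 2.48 ± 0.33 (limma adjusted p = 0.000236) and had a normal mean of 9.94, within the carcinoma range of 8.03 to 10.31. Slc39a4, a zinc transporter, differed by 2.31 ± 0.43 (limma adjusted p = 0.00247), and carcinoma 4 alone, at 11.38, was near the normal mean of 11.56. Stk32a, a kinase, differed by 2.83 ± 0.26 (limma adjusted p = 1.08e-05) and lay below its normal mean of 11.11 in every carcinoma. Against normal tissue, carcinomas differed by -2.03 for Slc39a4 (limma adjusted p = 0.00122) and -1.85 for Stk32a (limma adjusted p = 3.44e-05).

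Other rises had a carcinoma mean above that of normal tissue. Npnt, an integrin ligand of basement membranes, measured 7.88, 8.23, 7.56, 7.84 and 8.42 in papillomas and 10.76, 11.37, 10.59, 10.71 and 11.20 in carcinomas, with normal tissue between them at 9.69 ± 0.17 (difference 2.94 ± 0.17, limma adjusted p = 1.03e-07). Crabp2, a binding protein for retinoic acid, measured 6.72 to 6.86 in papillomas and 8.45 to 10.16 in carcinomas, against 7.32 ± 0.14 (difference 2.60 ± 0.25, limma adjusted p = 1.16e-05). Every carcinoma was above normal tissue for both genes. Renbp, a renin-binding epimerase, differed by 3.03 ± 0.32 (limma adjusted p = 4.3e-05), with carcinomas at 9.62 to 11.51 and a normal mean of 9.59. Gpc3, a glypican of the cell surface, measured 6.67, 6.59, 6.67, 6.78 and 6.42 in papillomas and 9.19, 11.75, 9.52, 12.10 and 8.36 in carcinomas. Papillomas were close together and carcinomas widely spread, highest in carcinomas 2 and 4 (difference 3.56 ± 0.54, limma adjusted p = 0.00058). Krt23, a keratin, had an even wider spread, with 11.49, 11.42, 9.71, 8.46 and 6.58 in carcinomas against 5.98 to 6.31 in papillomas (difference 3.41 ± 0.69, limma adjusted p = 0.00452). Carcinoma 5, at 6.58, was near the papillomas and below the normal mean of 6.98.

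The largest fall was that of Ano3, of the anoctamin membrane protein family. It measured 9.42, 9.76, 9.75, 9.44 and 9.72 in papillomas and 5.72, 5.47, 5.54, 5.34 and 5.97 in carcinomas, with normal tissue at 6.44 ± 0.14. Papillomas alone were high, and the groups were both narrow (difference -4.01 ± 0.12, 16.1-fold, limma adjusted p = 1.57e-11). The same pattern, high in papilloma and lower in both normal tissue and carcinoma, was measured for Erc2, a protein of the presynaptic active zone. Its papillomas lay at 10.86 to 10.99, its carcinomas at 7.73, 8.86, 8.40, 9.68 and 6.66, and normal tissue at 7.19 ± 0.17 (difference -2.65 ± 0.38, limma adjusted p = 0.000368). Papillomas 2 and 4, high in neuronal genes, were not the high papillomas for Erc2, but were the highest for Sphkap, an anchor of protein kinase A. It measured 9.58, 10.36, 9.37, 10.33 and 8.88 in papillomas and 7.47, 8.03, 7.47, 6.58 and 6.74 in carcinomas (difference -2.45 ± 0.29, limma adjusted p = 9.93e-05). The other 3 papillomas were also above every carcinoma, and without papillomas 2 and 4 the difference was -2.02 (limma adjusted p = 0.000969). Prkg1, a cGMP-dependent kinase, fell by 2.42 ± 0.41 (limma adjusted p = 0.0013) and Nexmif, a nuclear protein, by 2.57 ± 0.32 (limma adjusted p = 0.000142), each with a normal mean below every papilloma.

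In a second set of falls, papillomas were near or above the normal level and carcinomas below it. Hoatz, a cilium-associated protein, measured 9.41, 10.04, 9.71, 9.29 and 10.23 in papillomas and 6.52, 5.25, 7.84, 7.43 and 5.76 in carcinomas, against 10.31 ± 0.20 in normal tissue (difference -3.17 ± 0.38, limma adjusted p = 0.000107). Sbspon, a secreted thrombospondin-repeat protein, measured 10.40 to 11.09 in papillomas and 6.78 to 8.87 in carcinomas, against 10.34 ± 0.14 (difference -3.00 ± 0.30, limma adjusted p = 2.21e-05). Both were low in all carcinomas, by varying amounts. Hepacam, a glial cell adhesion molecule, fell by 2.61 ± 0.27 (limma adjusted p = 3.53e-05), and Cysltr1, a leukotriene receptor, fell by 2.36 ± 0.33 (limma adjusted p = 0.000352).

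Of 21 regulators of multiciliogenesis 11 were called higher (52.4%, beside 6.24% over all genes) and 10 in neither direction, with a median of 0.311. In the tumour arrays alone 8 were called higher, and 6 in these with sex as a term. Foxj1, the transcription factor that switches on axoneme genes, measured 7.79, 7.83, 7.90, 7.75 and 7.99 in papillomas and 9.60, 7.96, 10.81, 10.42 and 10.64 in carcinomas, against 11.40 ± 0.10 in normal tissue. Carcinoma 2 was at the papilloma level, and the other 4 carcinomas lay between papillomas and normal tissue. The difference was 2.03 ± 0.38 (limma adjusted p = 0.00281), and 2.52 without carcinoma 2. Deup1, which builds the deuterosomes that amplify centrioles, measured 9.66, 9.10, 8.44, 10.10 and 9.56 in papillomas and 10.64, 10.17, 10.39, 11.35 and 10.76 in carcinomas. Carcinomas were all above papillomas, and both were above normal tissue at 7.24 ± 0.32 (difference 1.29 ± 0.27, limma adjusted p = 0.00629). Stil, a centriole assembly protein that dividing cells use too, differed by 1.65 ± 0.23 (limma adjusted p = 0.00036), and Myb, a transcription factor of both centriole amplification and proliferation, by 1.60 ± 0.21 (limma adjusted p = 0.000212) and by 0.099 on its other probe set.

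Of 65 genes of the ciliary axoneme, 10 were called higher (15.4%) and 3 lower (4.62%), with a median of 0.11. The shares over all genes were 6.24% and 5.17%. Normal tissue was above both tumour means in 63 of the 65. The mean over the list was 7.16 to 7.33 in papillomas, 7.50, 7.07, 7.81, 7.60 and 7.30 in carcinomas 1 to 5 and 9.48 to 9.80 in normal tissue, so that carcinoma 3 was the highest tumour and carcinoma 2 the lowest. The count of higher genes was 6 without papilloma 2, and 2 without papillomas 2 and 4. The count of lower genes was 5 without carcinoma 3, and 1 without carcinoma 2, carcinoma 5, papilloma 2, papilloma 3 or papilloma 5. Pifo, a cilium assembly protein, measured 5.73, 6.11, 6.25, 5.83 and 6.46 in papillomas and 7.48, 6.49, 8.78, 8.63 and 7.63 in carcinomas, against 9.82 ± 0.26. As for Foxj1, carcinoma 2 was next to the papillomas (difference 1.72 ± 0.33, limma adjusted p = 0.00316). Rsph1, a radial spoke protein used as a marker of these cells, differed by 0.12 (limma adjusted p = 0.827), at 8.46 to 9.09 in papillomas and 7.88 to 9.78 in carcinomas. Its normal level was 11.14 to 11.33, above all 10 tumours.

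Genes of choroid plexus epithelium were mostly not called: of 53 measured, 4 were higher (7.55%) and 8 lower (15.1%), with a median of -0.127. The shares over all genes were 6.24% and 5.17%. The lower count was 5 without carcinoma 1 or without papilloma 2, and 4 without papilloma 3 or without papilloma 5. Ace, the angiotensin-converting enzyme, measured 11.69, 11.53, 11.91, 10.84 and 11.57 in papillomas and 13.23, 13.32, 13.36, 13.62 and 13.62 in carcinomas. Carcinomas were close to the normal level of 13.84 ± 0.03 and papillomas well below it (difference 1.92 ± 0.15, limma adjusted p = 2.29e-06). Cp, ceruloplasmin, differed by 1.21 ± 0.21 (limma adjusted p = 0.00178) and also lay nearer to normal tissue (9.61 ± 0.21) in carcinomas. Ecrg4, a secreted peptide precursor of this epithelium, went the other way, at 12.86, 12.99, 12.91, 12.64 and 13.01 in papillomas and 11.94, 11.50, 12.33, 12.25 and 11.16 in carcinomas. Papillomas were near the normal level of 13.07 ± 0.07 and every carcinoma was lower (difference -1.04 ± 0.18, limma adjusted p = 0.00128). Folr1, the folate receptor of this epithelium, differed by -0.46 (limma adjusted p = 0.0547) and Kl, the anti-ageing protein Klotho, by -0.30 (limma adjusted p = 0.141).

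**Figure D4:**
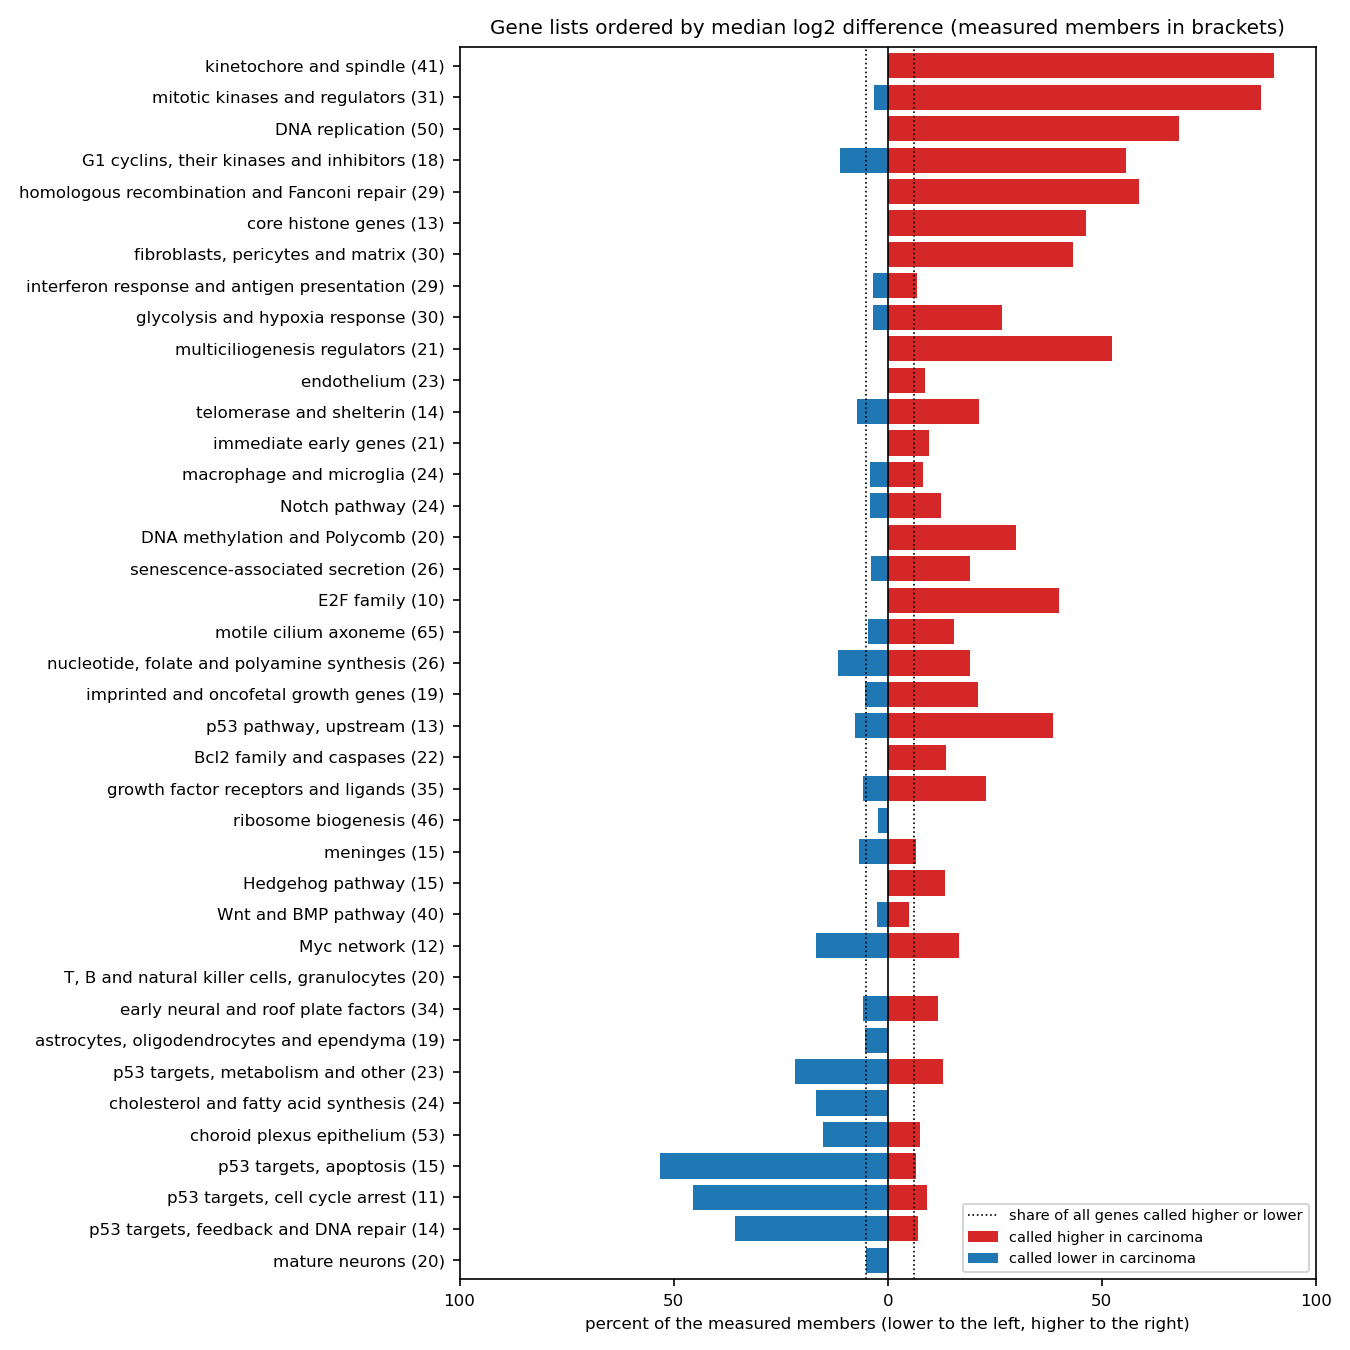
Percentage of the measured genes of each of 39 lists that were called higher and lower in carcinoma, ordered by the median difference of the list, with the shares over all genes (6.24% and 5.17%) as dotted lines. Kinetochore, mitotic and replication lists have the largest shares of higher genes, and the p53 target lists of cell death and of arrest the largest shares of lower genes.

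Genes of the matrix and of the cells that make it were called higher in 13 of 30 and in neither direction in 17, with a median of 0.377. Every carcinoma was above every papilloma in 11 of them. The shares over all genes were 6.24% called higher and 4.52% with every carcinoma above. Fn1, fibronectin, measured 9.28, 9.37, 9.38, 8.08 and 8.33 in papillomas and 10.50, 11.58, 9.71, 11.33 and 11.56 in carcinomas. The lowest carcinoma was just above the highest papilloma (difference 2.05 ± 0.34, limma adjusted p = 0.00126). Lox, which crosslinks collagen, measured 6.70 to 7.54 in papillomas and 8.50 to 10.45 in carcinomas (difference 2.19 ± 0.31, limma adjusted p = 0.000336). Vim, the filament protein vimentin, differed by 1.16 ± 0.20 (limma adjusted p = 0.00156). The markers that define fibroblasts were not called: Col1a1 differed by 0.23 (limma adjusted p = 0.0674), Dcn by 0.61 (limma adjusted p = 0.433), Lum by -0.20 (limma adjusted p = 0.474) and Pdgfra by 0.08 (limma adjusted p = 0.897). The part of fibroblasts in this result was not tested.

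Growth signalling differed in single genes. Of 35 receptors and ligands 8 were called higher (22.9%) and 2 lower (5.71%), beside 6.24% and 5.17% over all genes. The median was 0.033, and 5 were called higher without papillomas 2 and 4. Axl, a receptor tyrosine kinase, measured 8.59 to 9.66 in papillomas and 9.97 to 10.75 in carcinomas (difference 1.30 ± 0.17, limma adjusted p = 0.000197). Pdgfb, a platelet-derived growth factor, differed by 1.14 ± 0.18 (limma adjusted p = 0.000914) and Igf1, an insulin-like growth factor, by -1.06 ± 0.14 (limma adjusted p = 0.000213). Carcinomas of Igf1, at 7.47 to 7.91, were all below papillomas at 8.32 to 9.01. Jag1, a Notch ligand, measured 7.32 to 7.95 in papillomas and 8.53 to 9.63 in carcinomas (difference 1.48 ± 0.18, limma adjusted p = 0.000118). It was 1 of 3 Notch pathway genes of 24 called higher (12.5%, beside 6.24% over all genes), and 5 were called higher without carcinoma 5. The only one called lower was Dner, a neuronal Notch ligand, at -1.17 (limma adjusted p = 0.0329). It was highest in papillomas 2 and 4, and its call was lost without papilloma 4 or without carcinoma 1, 4 or 5, at limma adjusted p-values of 0.0527 to 0.0795. Without papillomas 2 and 4 the difference of Dner was -0.53 (limma adjusted p = 0.0647). In the tumour arrays alone its limma adjusted p was 0.108. Bmp4, a bone morphogenetic protein that patterns the roof plate, differed by 0.60 ± 0.11 (limma adjusted p = 0.00278).

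Of the 12 genes of the Myc network, Mycl, a relative of Myc, was higher in every carcinoma, at 8.55, 8.10, 7.17, 8.33 and 8.52 against 6.48 to 7.08 (difference 1.35 ± 0.21, limma adjusted p = 0.000691). Max, the partner that Myc needs to bind DNA, was lower, at 11.53 to 11.78 against 11.99 to 12.31 (difference -0.47 ± 0.07, limma adjusted p = 0.000619). It lies on chromosome 12, whose genes shifted together in carcinomas 1 to 3. Ribosome biogenesis genes, which Myc drives, had a median difference of 0.028 over 46 genes and 1.14 between carcinoma and normal tissue. By limma 0 were called higher and 1 lower, where 5 were higher and 4 lower at an unadjusted p under 0.05. Without carcinoma 4 or without papilloma 5, 1 was called higher, and without carcinoma 3, 2 lower.

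Of 30 genes of glycolysis and of the response to low oxygen, 8 were called higher (26.7%) and 1 lower (3.33%), with a median of 0.32. The shares over all genes were 6.24% and 5.17%. Without papillomas 2 and 4, 4 were called higher, and without carcinoma 3, 2 lower. The lower one was Pfkm, the muscle form of phosphofructokinase, at -0.37 (limma adjusted p = 0.0183, or 0.0764 in the tumour arrays alone). Ndrg1, a stress-induced protein, measured 11.36, 9.59, 9.51, 9.67 and 9.25 in papillomas and 12.51, 12.29, 11.38, 12.12 and 13.34 in carcinomas. Papilloma 1 stood above its group, almost level with carcinoma 3, and carcinoma 5 was the highest tumour (difference 2.45 ± 0.36, limma adjusted p = 0.000509). Vegfa, the growth factor of blood vessels, measured 10.42 to 11.05 in papillomas and 11.36 to 12.62 in carcinomas (difference 1.03 ± 0.18, limma adjusted p = 0.00167). The mean of this list was 11.28 in carcinoma 5 and 10.47 to 10.60 in the other carcinomas. Of 20 genes of DNA methylation and Polycomb repression 6 were called higher (30%, beside 6.24% over all genes). Among them was Ezh2, the histone methyltransferase, at 8.77 to 9.01 in papillomas and 9.45 to 10.32 in carcinomas (difference 1.03 ± 0.14, limma adjusted p = 0.000255). Of 19 imprinted genes 4 were called higher (21.1%) and 1 lower (5.26%), beside 6.24% and 5.17% over all genes. The lower one was Igf2, a fetal growth factor, at -1.37 (limma adjusted p = 0.0373), or -0.86 without carcinoma 5, which was far below the rest at 8.53. That call was lost without carcinoma 2 or papilloma 1, 2, 3 or 5, at limma adjusted p-values of 0.056 to 0.0791. It was also lost in the tumour arrays alone (limma adjusted p = 0.122) and without papillomas 2 and 4 (limma adjusted p = 0.0709). Peg10, expressed from the paternal copy, measured 7.82 to 8.33 in papillomas and 9.08 to 9.70 in carcinomas (difference 1.29 ± 0.12, limma adjusted p = 1.04e-05). Cdkn1c, given above, is another of the 4.

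Of 34 early neural and roof plate factors 4 were called higher (11.8%) and 2 lower (5.88%), beside 6.24% and 5.17% over all genes. The median was -0.059, and 2 were called higher and 1 lower in the tumour arrays alone. Differences were above 0 for 15 and below 0 for 19. Prom1, a membrane protein of stem and progenitor cells, measured 6.14, 6.73, 5.75, 5.93 and 5.54 in papillomas and 7.83, 8.23, 7.48, 6.98 and 8.59 in carcinomas (difference 1.80 ± 0.26, limma adjusted p = 0.00042). Every carcinoma was above every papilloma, and normal tissue was at the papilloma level (6.18 ± 0.19). Msx2, a roof plate transcription factor, was lower in every carcinoma, at 7.01 to 9.10 against 9.35 to 9.89 (difference -1.27 ± 0.27, limma adjusted p = 0.0065). The other lower one, Neurog2, a factor of neuron formation, differed by -0.30 (limma adjusted p = 0.0331). That call was lost without carcinoma 1 or 3 or papilloma 1, 3 or 4, at limma adjusted p-values of 0.0636 to 0.0828. It was also lost in the tumour arrays alone (limma adjusted p = 0.0727) and without papillomas 2 and 4 (limma adjusted p = 0.0666). Of 22 genes of the Bcl2 family and caspases 3 were called higher (13.6%, beside 6.24% over all genes). Among them was Casp2, which is activated by the p53-induced Pidd1 (difference 0.74 ± 0.10, limma adjusted p = 0.000194). Of 24 genes of cholesterol and fatty acid synthesis 4 were called lower (16.7%, beside 5.17% over all genes). Among them were Mvk, mevalonate kinase (difference -0.38 ± 0.08, limma adjusted p = 0.00428), and Mvd on chromosome 8 (difference -0.48 ± 0.09, limma adjusted p = 0.00379). Aldh1l1, a folate enzyme used as a marker of astrocytes, measured 10.27, 10.56, 10.76, 10.48 and 10.50 in papillomas and 9.59, 8.72, 10.13, 8.69 and 8.87 in carcinomas, with no overlap (difference -1.31 ± 0.22, limma adjusted p = 0.00126). Its normal level, 10.88 ± 0.08, was above all 10 tumours.

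Markers of other cell types were mostly not called, and single arrays stood out. Of 24 macrophage and microglia genes 2 were called higher (8.33%) and 1 lower (4.17%), near the 6.24% and 5.17% over all genes. The median was 0.175, and 20 of the 24 differences were above 0. Cd68, a lysosomal protein of macrophages, measured 9.02, 8.61, 8.50, 8.56 and 8.68 in papillomas and 9.06, 10.60, 8.92, 10.22 and 10.44 in carcinomas. Carcinoma 3 lay within the papilloma range and carcinoma 1 just above it (difference 1.17 ± 0.27, limma adjusted p = 0.0109, or 0.0624 without papillomas 2 and 4). Gpnmb, a membrane glycoprotein, differed by 1.37 (limma adjusted p = 0.0198), a call lost without carcinoma 1 or 2 or papilloma 5, at limma adjusted p-values of 0.0512 to 0.0541. H2-Ab1, an antigen-presenting protein, differed by -0.70 (limma adjusted p = 0.0393), a call lost without carcinoma 2, 3, 4 or 5 or papilloma 2, 3 or 5, at 0.051 to 0.0978. In the tumour arrays alone limma called none of these 3, at adjusted p-values of 0.0539 for Cd68, 0.0757 for Gpnmb and 0.0805 for H2-Ab1. Without papillomas 2 and 4 the limma adjusted p was 0.098 for Gpnmb and 0.0759 for H2-Ab1. The defining macrophage markers Csf1r and C1qa differed by 0.25 (limma adjusted p = 0.55) and 0.31 (limma adjusted p = 0.343), and were highest in carcinoma 4, at 9.47 and 9.57. Of 23 endothelial genes 2 were called higher (8.7%), near the 6.24% over all genes. They were Angpt2, a ligand of vessel remodelling (0.67, limma adjusted p = 0.011), and Aplnr, the apelin receptor (0.65, limma adjusted p = 0.0111). The count was 4 without carcinoma 4, and neither gene passed in the tumour arrays alone (limma adjusted p = 0.0514 and 0.0524). The mean of 29 genes of interferon response and antigen presentation was 9.31 in carcinoma 4 and 7.91 to 8.09 in the other carcinomas. Of these 29 genes 2 were called higher (6.9%) and 1 lower (3.45%), near the shares over all genes. The list median was 0.344, with 21 differences above 0 and 8 below. Ifih1 (0.87, limma adjusted p = 0.0222) and Irf1 (0.65, limma adjusted p = 0.00463) were higher in every carcinoma. For Ifih1 the limma adjusted p was 0.0816 in the tumour arrays alone. Bst2, an interferon-induced membrane protein, was lower in every carcinoma, at 8.77, 7.78, 8.89, 9.01 and 7.29 against 9.94, 9.95, 10.21, 10.18 and 11.08 (difference -1.92 ± 0.32, limma adjusted p = 0.00113). It lies on chromosome 8. Of 20 genes of lymphocytes and granulocytes limma called 0 in either direction, with 1 higher and 1 lower at an unadjusted p under 0.05. The count was 1 higher without carcinoma 3 or without carcinoma 5, and 1 lower without papilloma 2. The smallest p of that list was that of Cd79a, a B cell receptor chain (difference 0.50, limma adjusted p = 0.0551). Neuronal genes had a median of -0.594, and of 0.038 without papillomas 2 and 4. The part of neurons, macrophages, endothelium and lymphocytes in the results above was not tested.

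The median over the genes of some chromosomes was shifted in single carcinomas. Whether a shift covers a whole chromosome or a region of it was not tested. With dim genes left out, the median difference of the genes of each autosome from the papilloma mean was taken in each carcinoma, and for each papilloma from the mean of the other 4. Papillomas lay between -0.052 and 0.043 over all 95 pairs of array and autosome. Of the 95 pairs in carcinomas, 10 were at or below -0.2 and 1 at or above 0.2. Chromosome 8 was at -0.325 in carcinoma 1, -0.139 in carcinoma 2, -0.128 in carcinoma 3, -0.492 in carcinoma 4 and -0.018 in carcinoma 5. Chromosome 12 was at -0.21, -0.309 and -0.333 in carcinomas 1 to 3, and at 0.032 and -0.042 in carcinomas 4 and 5. Chromosome 19 was at -0.261 and -0.265 in carcinomas 1 and 2, -0.034 and 0.008 in carcinomas 3 and 4, and -0.525 in carcinoma 5. Each carcinoma had at least 1 of these 3 chromosomes low, and no chromosome was low in all 5. Chromosome 16 was low in carcinoma 2 (-0.327), chromosome 13 in carcinoma 4 (-0.32), and chromosome 6 was high in carcinoma 5 (0.302).

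**Figure D5:**
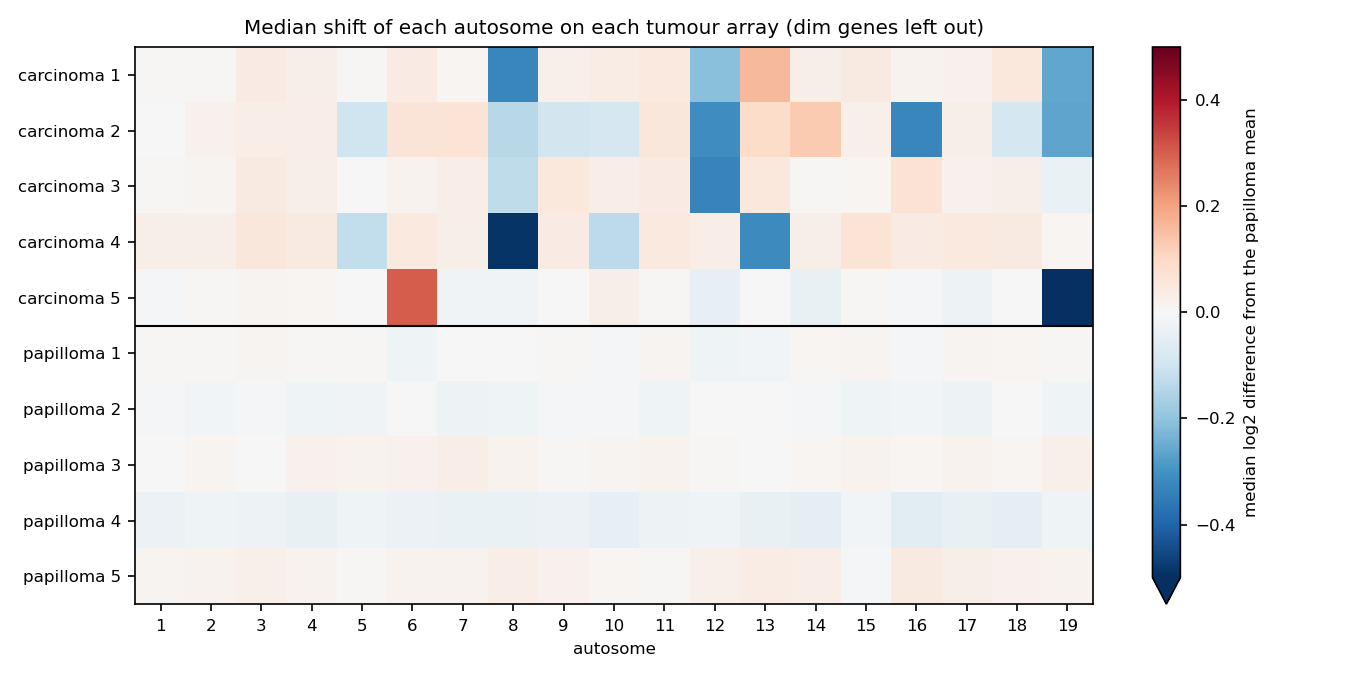
Median log2 difference of the genes of each autosome (columns) in each carcinoma and each papilloma (rows), with blue for lower and red for higher, carcinomas against the papilloma mean and papillomas against the mean of the other 4. Papillomas are nearly white throughout, and carcinomas have low blocks at chromosomes 8, 12 and 19 in different arrays.

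These shifts reach the counts of single genes. Chromosomes 8, 12 and 19 hold 2504 of the genes (11.3%), and had 394 of the genes called lower (34.4% of them) and 56 of those called higher (4.05%). Of the 23 lower p53 targets, 2 lie there, Fas on chromosome 19 and Dglucy on chromosome 12. In a further fit, the median shift of each autosome over all its genes was removed from the carcinoma arrays and from no others. This fit called 1499 genes higher and 938 lower. The p53 targets had 23 lower and 7 higher, and the genes of mitosis 66 higher and 1 lower. In that setting 6 of the 172 calls of named genes were lost. Those of Bst2, Max, Rbl2, Terf2ip and Mvd were kept. Expression does not measure DNA copies, and copy number was not analysed here.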

How the data were processed

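Total RNA of 15 mouse tissue samples had been hybridised to single-colour Affymetrix GeneChip arrays. The authors deposited log2 expression values, made with RMA in Affymetrix Expression Console per the submitters' processing notes; software versions and the genome build are not given in the sources used here. RMA fits all arrays together and compresses small signals, so differences of dim genes are understated, and the deposited table keeps no scanner background. Of 41345 probe sets, 23521 carry 1 gene symbol, 1814 several and 16010 none. Probe sets with several or no symbol and 190 controls were left out, and each gene was represented by its probe set with the highest mean, which left 22180 genes, 1082 of them with several probe sets. Symbols were checked through Entrez identifiers against RefSeq (23328 matched).

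Groups came from the labels, which call the samples biological replicates, so p-values measure the spread between these samples. Normal arrays 2 to 5 express both Xist and Y-linked genes so whether each is from 1 mouse is not settled; fits without the normal arrays are among the alternatives. The 3 groups were fitted in 1 limma model (limma 3.58.1, R 4.3.3, 12 residual degrees of freedom), which was tested on simulated data, and p-values were adjusted by Benjamini-Hochberg with a threshold of 0.05. Genes named are the 12 largest rises and falls without overlap of the tumour groups, a list of key genes, and up to 4 called members of each list in its main direction and 2 in the other, or up to 2 with the smallest p where none was called. Predicted genes and small RNAs were left out. The lists, genes and tests were chosen with earlier results of these data known. Replicate numbers were tested for pairing: the deviations of same-numbered tumours correlated between -0.018 and 0.136, over 0.1 in 2 of 5 pairs, and were not used as pairs. Promoters and their positions are from RefSeq's table on GRCm38.p6, with 16990 genes matched by symbol. A gene was counted with a motif if the promoter of any of its starts held it, so shares of promoters are shares of genes. Alternatives concerned scaling, filters, weights, probe sets, sex, chromosome shifts and left-out arrays. Leaving out papillomas 2 and 4 together was chosen after seeing the data.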

Additional observations from a re-analysis of the deposited data

Results flagged for a closer look

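Within groups of 5 arrays, the highest or lowest array was compared with its nearest neighbour by Dixon's gap ratio (critical value 0.71), over 364 groups of named genes, of which 26 stood out, and 80 groups of list means, of which 4 did. Chance gives about 1 in 20 groups.

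Papilloma 2 was the lowest papilloma for several cell cycle and repair genes: Ccna2 (9.17), Bub1b (7.23), Prc1 (7.87), Fanci (6.76), Rad54l (6.47) and Tyms (9.17). It was also the lowest for Naip2 (6.47), and it is the array with the highest neuronal genes. Papilloma 1 was the highest papilloma for the immediate early genes Ccn1 (11.41) and Ier3 (10.83), for Ndrg1 (11.36), Sat1 (9.79) and Slc16a3 (8.06), and for the list means of immediate early genes (9.99) and of senescence-associated secretion (7.39). It was the lowest for Slc38a3 (9.28) and Ak1 (10.15). Papilloma 3 was the lowest for Terc (6.95) and Notch3 (7.42), and papilloma 4 for Mdm2 (10.09) and Igf2 (11.35). Papilloma 5 was the highest for Bst2 (11.08).

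Among carcinomas, carcinoma 2 was the highest for Fancd2 (9.09) and Bmp4 (10.74) and the lowest for Prkg1 (6.26) and Ak1 (8.87). Carcinoma 4 was the highest for the T cell gene Cd2 (6.34) and for the mean of interferon response and antigen presentation (9.31), and the lowest for Aqp1 (11.08). Carcinoma 5 was the highest for the mean of glycolysis and hypoxia response (11.28) and the lowest for Igf2 (8.53), a growth factor of choroid plexus.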

How the results depend on the processing

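The counts of 1383 higher and 1147 lower genes moved by over 1.5 times in 4 settings: 847 and 740 without papillomas 2 and 4, 789 and 540 with only the 10 tumour arrays, 644 and 428 in these with sex as a term, and 127 and 57 with a minimum log2 difference of 0.5. That last setting left 126 genes at least 2-fold higher and 57 lower. All of these settings but the last have fewer arrays in the fit, and the last tests a stricter hypothesis. The cause of the smaller counts was not tested. Leaving out 1 tumour array gave 1081 to 1637 higher and 801 to 1401 lower genes, and 282 to 324 and 152 to 191 at least 2-fold. A replicate block, although the numbers did not pair the arrays, gave 1226 higher and 1042 lower genes. Of 182 named genes 172 were called. None of these changed sign in the 23 alternatives, 119 kept their call in all other than the minimum difference, and 63 in all 23. Aqp1, not called at a difference of -0.003, was above 0 with array quality weights (0.138), quantile normalization (0.0076), without carcinoma 4 (0.265) and without papilloma 1 (0.0519), papilloma 2 (0.071) or papilloma 3 (0.0565), and at -0.182 without papilloma 4. Dim genes are limited by RMA's background, which the deposited table does not give.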
